A study of Mus musculus with 8 samples.

Results

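The genes described here are 9 genes that mark Lyve1+ Folr2+ interstitial macrophages, out of 23469 genes in the table: Lyve1, Folr2, Mrc1, Stab1, Ednrb, Cbr2, F13a1, Pf4 and Ccl24. They were chosen by name with their differences between AeEM and AeMM already known, so all values of that contrast for these 9 genes are given as a description, with no test. All 9 were listed, and all 9 averaged 1 TPM or more (transcript abundance scaled for gene length and library size) over the 8 libraries. Smart-seq2 RNA-seq was made from macrophages sorted out of malignant ascites, 4 libraries of AeEM, the embryonic-derived group, and 4 of AeMM, the monocyte-derived group. Both groups came from female C57BL/6 mice of the genotype Ms4a3TdT, in which Cre driven by Ms4a3 switches on tdTomato in granulocyte-monocyte progenitors and their progeny. AeEM cells lacked tdTomato and AeMM cells carried it. All mice had received ID8 cells, a mouse ovarian surface epithelial tumour line, in the peritoneal cavity at 4 to 5 weeks of age, and ascites was taken 65 days later. The labels give the treatment as none for every library. The stain held CD45, Ly6G, Siglec F, Ly6C, CD11b and F4/80, and live CD45+ cells were gated as Ly6G-, Siglec F-, Ly6C-, F4/80+ and CD11b+, so the AeEM gate can hold any such cell whose progenitors did not express Ms4a3. The labels call the libraries biological replicates, and neither they nor the methods say that AeEM and AeMM libraries with the same number share a mouse.

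In many organs resident macrophages fall into a perivascular kind with high Lyve1 and Folr2 and low MHC class II, and a kind near nerves with low Lyve1 and high MHC class II. The first kind takes up macromolecules through scavenger and mannose receptors, and MAF family factors are known to sustain it. Receptors such as Lyve1 and Mrc1 are also raised by IL-4 or glucocorticoids in macrophages of other origins.

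The promoters of 3 members are shown because Stab1 and F13a1 lay below AeMM in every AeEM library, whereas Folr2 lay above. Each window runs from 250 bases before to 50 bases after the RefSeq start furthest upstream, 5′ to 3′ on the minus strand of GRCm38.p6. Stab1 is from chr14:31168592-31168891, F13a1 from chr13:37050195-37050494 and Folr2 from chr7:101857141-101857440. Capitals mark the letters of the PU.1 core (GAGGAA), the MAF site (TGCTGA) and E-boxes of MITF and TFE factors (CACGTG or CATGTG), searched on both strands, and no matches overlapped in the windows of the members that have one.
Stab1: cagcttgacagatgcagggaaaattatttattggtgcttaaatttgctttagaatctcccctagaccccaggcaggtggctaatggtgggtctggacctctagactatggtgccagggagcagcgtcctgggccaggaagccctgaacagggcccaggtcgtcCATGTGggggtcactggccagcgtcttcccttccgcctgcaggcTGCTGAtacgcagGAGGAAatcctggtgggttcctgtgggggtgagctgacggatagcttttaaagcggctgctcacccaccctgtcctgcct
F13a1: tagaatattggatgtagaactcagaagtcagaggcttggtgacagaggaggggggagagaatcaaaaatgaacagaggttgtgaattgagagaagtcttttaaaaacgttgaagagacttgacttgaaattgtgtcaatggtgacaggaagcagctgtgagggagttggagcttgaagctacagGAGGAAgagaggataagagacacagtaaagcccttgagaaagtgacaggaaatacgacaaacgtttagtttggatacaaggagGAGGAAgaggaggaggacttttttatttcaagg
Folr2: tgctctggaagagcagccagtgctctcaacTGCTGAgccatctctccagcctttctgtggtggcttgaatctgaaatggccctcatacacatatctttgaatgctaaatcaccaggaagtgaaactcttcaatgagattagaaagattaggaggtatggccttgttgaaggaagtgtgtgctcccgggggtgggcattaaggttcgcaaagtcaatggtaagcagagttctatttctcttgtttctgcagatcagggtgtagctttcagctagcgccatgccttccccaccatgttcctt

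In these windows Stab1 held 1 match of each motif, with the PU.1 core at -30, the MAF site at -43 and the E-box at -87 from the start. F13a1 held 2 PU.1 cores, at -66 and 18, and Folr2 held 1 MAF site at -220. RefSeq windows of these 300 bases were found for 7 members, with 9 windows in all because F13a1 and Folr2 have 2 starts each. The PU.1 core was in 6 of the 9 windows, the MAF site in 5 and an E-box in 4. Of all 32851 promoters of that length, 28.3% held the PU.1 core, 19.5% the MAF site and 20.4% an E-box. Mrc1 held 3 PU.1 cores and 2 E-boxes, Cbr2 held 1 match of each motif, and Ednrb held a MAF site alone. A match says only that these letters are in the window. Lyve1 and Ccl24 had no entry.

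Macrophage genes were abundant in every library. The 8 pan-macrophage markers, Adgre1, Csf1r, Cd68, Lyz2, Itgam, Mertk, Fcgr1 and Cd14, summed to 69488 to 77597 TPM in AeEM and 70623 to 85709 TPM in AeMM, and 0 of them passed the unpaired limma test defined further on, with 3 at an unadjusted p under 0.05. Gata6, the defining factor of large peritoneal macrophages, had a mean of 0.266 TPM, whereas each of the 9 genes exceeded 1 TPM in every library. Other genes of those cells were present, and 7 of the 12 listed averaged 1 TPM or more. The 12 summed to 368 to 425 TPM in AeEM and 359 to 401 TPM in AeMM. Cd5l was the highest of them, at 255 and 276 TPM. The libraries reached 1 TPM in 8498 to 8753 genes. The table gives no read counts, the depth of the libraries is unknown, and no counting interval can be given. In bulk samples, fewer cells of a type and less RNA per cell cannot be told apart.

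The deposited values carry a constraint that touches every difference below. For each gene, the mean was nearly equal in 3 sets of libraries, namely replicate 1 of both groups, replicate 2 of both groups, and replicates 3 and 4 of both groups. The median gap between set means was 0.010 on the log2 scale over the genes tested, and the largest gap of a member was 0.036. A high AeEM value in replicate 1 or 2 was therefore tied to a low AeMM value of the same number, and replicates 3 and 4 were the only set with a spread inside a group.

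Pf4 and Cbr2 dominated the 9 genes. Pf4, the chemokine CXCL4, stood at 5353 TPM in AeEM and 5139 TPM in AeMM, and Cbr2, a carbonyl reductase, at 1987 and 2142 TPM (means of 4 libraries). Together they held 91.7% to 94.9% of the summed TPM of the 9 genes, which was 7195 to 8629 TPM per library. Pf4 lay at the percentile 99.7 and Cbr2 at 99.5 of all genes tested by level. Below them came Ccl24 at 164 TPM in AeEM, Lyve1 at 84.3, Ednrb at 70.6, Mrc1 at 56.0, Stab1 at 49.4, Folr2 at 24.7 and F13a1 at 20.4 TPM. In that order the values of Mrc1 and Stab1 overlapped across libraries and no other neighbours did. In AeMM the order below Cbr2 was Ccl24 at 223 TPM, Lyve1 at 138, Stab1 at 81.0, Ednrb at 68.5, Mrc1 at 62.2, F13a1 at 25.7 and Folr2 at 21.0 TPM. There Stab1 overlapped with Ednrb, and Ednrb with Mrc1. Stab1 thus stood below Ednrb and Mrc1 in AeEM and above both in AeMM, and Folr2 and F13a1 exchanged places.

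Of the surface receptors, Lyve1 and Stab1 were both lower in AeEM by 0.70 on the log2 scale and Folr2 was higher, while Mrc1 and Ednrb overlapped. Lyve1 is a receptor for hyaluronan, first known from lymphatic endothelium. Its log2(TPM + 1) in AeEM replicates 1 to 4 was 6.44, 6.38, 6.45 and 6.39, and in AeMM replicates 1 to 4 it was 7.14, 7.16, 6.92 and 7.25. All AeEM libraries were below all AeMM libraries, and AeMM replicate 3 was the nearest. The mean was 6.41 ± 0.04 in AeEM and 7.12 ± 0.14 in AeMM (SD, n = 4), a difference of -0.70 (SE, the standard error, 0.08), or 1.63-fold.

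Stab1 encodes stabilin-1, a scavenger receptor for modified lipoproteins and matrix fragments. Its log2(TPM + 1) was 5.75, 5.62, 5.68 and 5.56 in AeEM and 6.22, 6.39, 6.48 and 6.32 in AeMM, in the order of replicates 1 to 4. Here too all AeEM libraries were below all AeMM libraries. The mean was 5.65 ± 0.08 against 6.35 ± 0.11 (SD, n = 4), a difference of -0.70 (SE 0.08), or 1.63-fold. Lyve1 and Stab1 thus differed by the same amount, from AeMM levels of 138 and 81.0 TPM. Within AeMM they parted, since replicate 3 was the lowest library for Lyve1 and the highest for Stab1. Replicate 3 minus replicate 4 was -0.34 for Lyve1 and 0.17 for Stab1 in AeMM, and 0.06 and 0.12 in AeEM.

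Folr2, folate receptor beta, went the other way. Its log2(TPM + 1) was 4.68, 4.67, 4.77 and 4.60 in AeEM and 4.48, 4.47, 4.35 and 4.53 in AeMM, so that each AeEM library exceeded every AeMM library by a small margin. The mean was 4.68 ± 0.07 against 4.46 ± 0.07 (SD, n = 4), a difference of 0.22 (SE 0.08), or 1.17-fold. The lowest AeEM library and the highest AeMM library were both replicate 4.

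Mrc1, the mannose receptor CD206, stood at 5.76, 5.73, 5.95 and 5.88 in AeEM and at 6.03, 6.08, 5.86 and 5.95 in AeMM (log2(TPM + 1), replicates 1 to 4). The groups overlapped, since the AeEM libraries of replicates 1 and 2 were below all AeMM libraries and those of replicates 3 and 4 were not. The difference was -0.15 (SE 0.08). Ednrb, the endothelin receptor type B, ran from 6.01 to 6.22 in AeEM and from 6.05 to 6.26 in AeMM, with a difference of 0.04 (SE 0.08). AeEM replicate 1 was the lowest and AeMM replicate 1 the highest of the 8 values.

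Of the enzymes, F13a1 was lower in every AeEM library and Cbr2 overlapped. F13a1, the transglutaminase subunit of coagulation factor XIII, stood at 4.46, 4.38, 4.42 and 4.42 in AeEM and at 4.68, 4.77, 4.77 and 4.73 in AeMM (log2(TPM + 1), replicates 1 to 4). The difference was -0.32 (SE 0.07), or 1.25-fold, and the spread within a group was at most 0.10. Cbr2 ran from 10.83 to 11.13 in AeEM and from 10.98 to 11.12 in AeMM, with a difference of -0.11 (SE 0.07).

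Of the chemokines, Ccl24 was lower in most AeEM libraries and Pf4 overlapped. Ccl24, eotaxin-2, attracts eosinophils through CCR3. Its log2(TPM + 1) was 7.34, 7.31, 6.92 and 7.77 in AeEM and 7.79, 7.83, 7.65 and 7.95 in AeMM. The AeEM value of replicate 4 lay above the AeMM value of replicate 3, the only point of overlap. The difference was -0.47 (SE 0.16), and replicate 3 stood 0.85 below replicate 4 in AeEM and 0.30 below it in AeMM, the widest spread among the 9 genes in AeEM. Pf4 ran from 12.25 to 12.54 in AeEM and from 12.26 to 12.39 in AeMM, with a difference of 0.06 (SE 0.07).

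**Figure D1:**
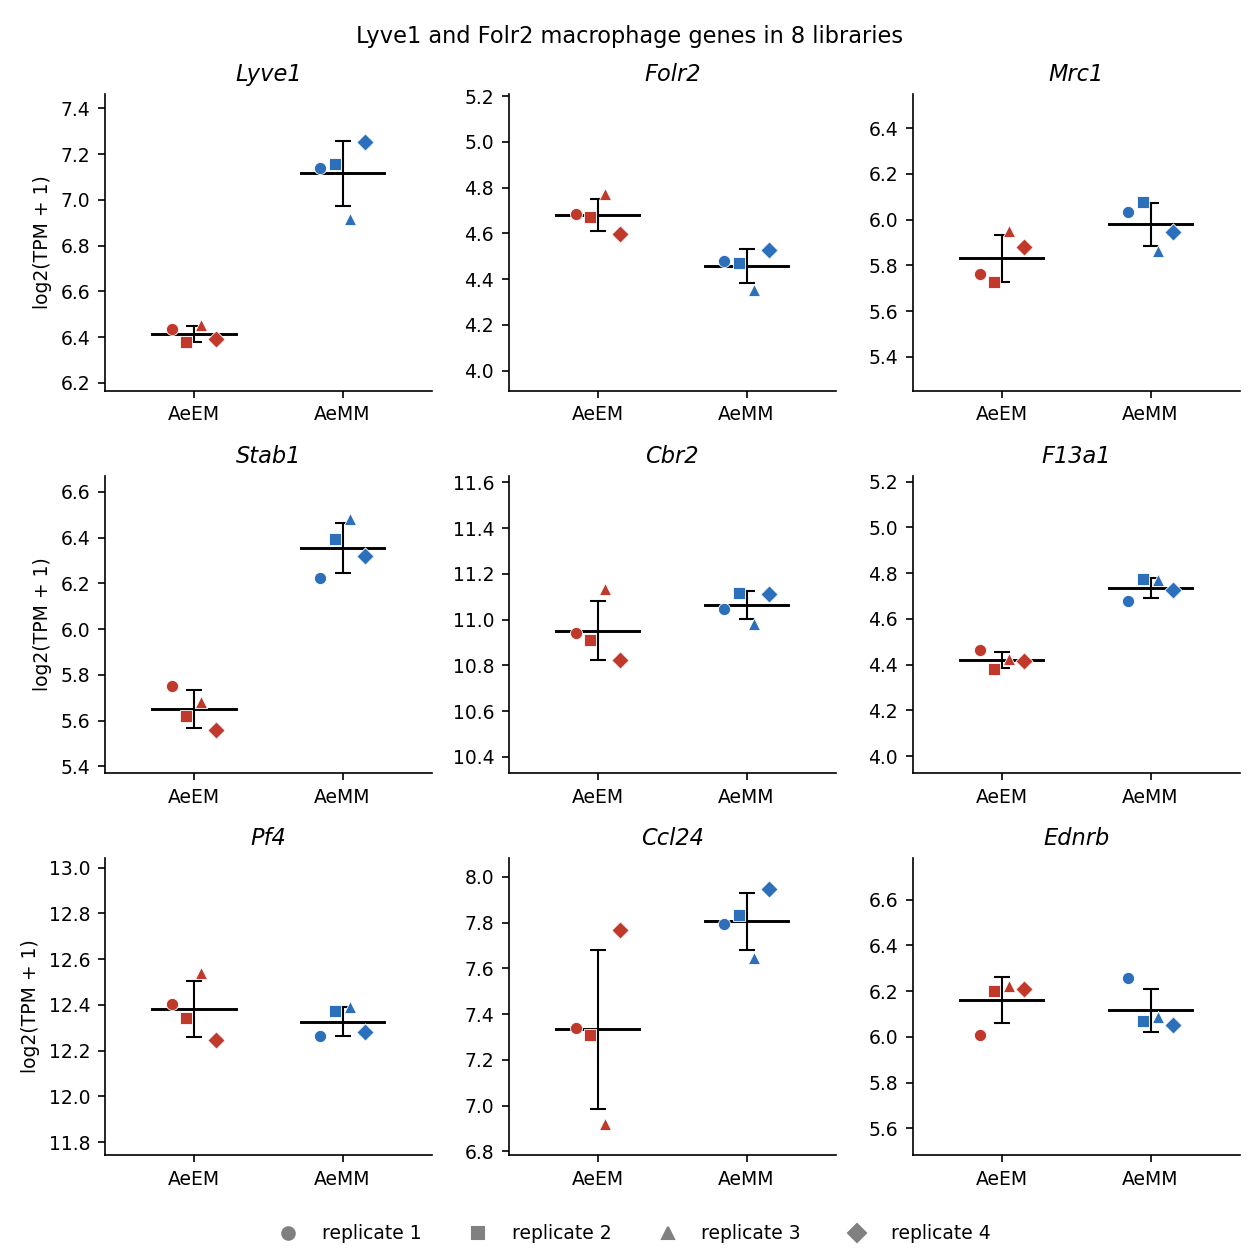
Each panel plots 1 gene, with log2(TPM + 1) on the vertical axis, AeEM in red and AeMM in blue, marker shapes for the replicate number, horizontal lines for means and bars for the SD of 4 libraries; every panel spans the same range of log2 units. Lyve1, Stab1 and F13a1 are lower in all 4 AeEM libraries, Folr2 is higher in all 4, and the other 5 genes overlap.

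The 9 genes did not move as 1 group. Of the 9 differences 6 were negative and 3 positive, with a median of -0.15, where the median over all 8801 genes tested was -0.006 and 51.2% of them were negative. The groups did not overlap for 4 of the 9, and of all genes tested 12.2% did not overlap. For 3 of those 4, Lyve1, Stab1 and F13a1, AeEM was lower, against 6.53% of all genes tested. Since the 9 were chosen on this contrast, nothing is read from those shares.

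Within the 3 sets, the differences of Lyve1 were -0.71 for replicate 1, -0.78 for replicate 2 and -0.66 for the pooled replicates 3 and 4. Those of Stab1 were -0.47, -0.78 and -0.78, and those of Folr2 were 0.20, 0.20 and 0.25. Folr2 and Lyve1 thus kept opposite signs in each set. F13a1 had -0.21, -0.39 and -0.33, Ccl24 had -0.45, -0.52 and -0.45, and Cbr2 had -0.11, -0.20 and -0.07. The sign was the same in all 3 sets for these 5 genes below AeMM and for Folr2 above it, where 19.2% of all genes tested were negative in all 3 sets and 13.4% were positive in all 3. Mrc1 changed sign, with -0.27, -0.35 and 0.01. Ednrb and Pf4 did so too, with -0.25, 0.13 and 0.15 for Ednrb and 0.14, -0.03 and 0.06 for Pf4.

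**Figure D2:**
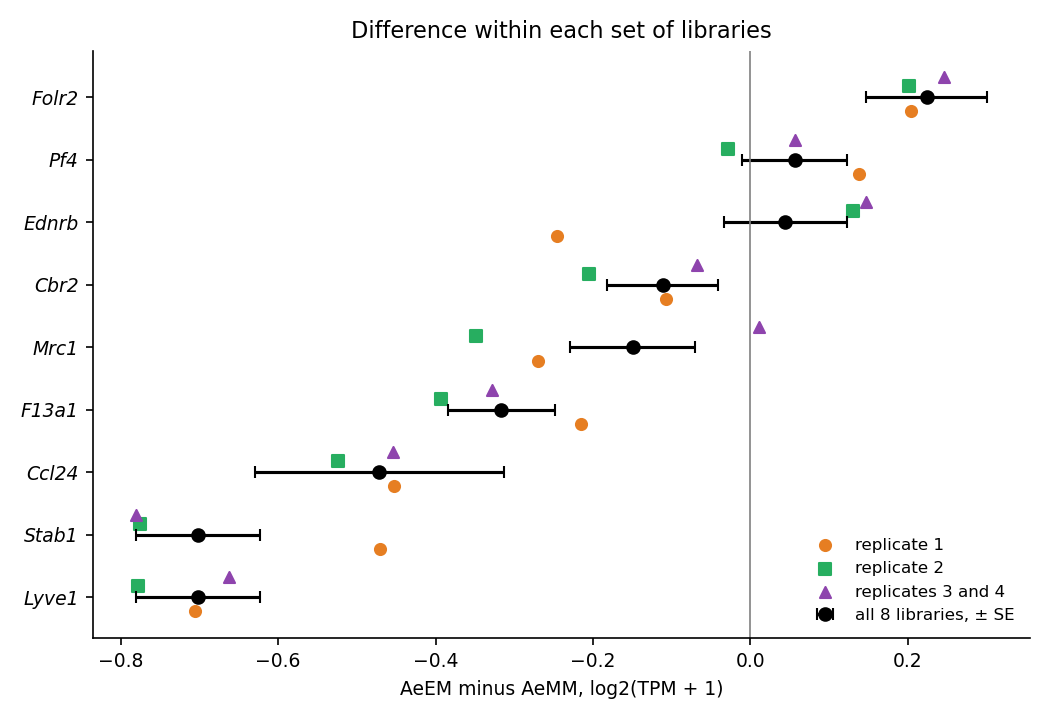
The horizontal axis is the difference AeEM minus AeMM in log2(TPM + 1). Black points are for all 8 libraries, with bars for the standard error of the unpaired limma fit, and colours for replicate 1, replicate 2, and replicates 3 and 4 together. Lyve1, Stab1, Ccl24, F13a1 and Cbr2 stay left of 0 in every set, Folr2 stays right of it, and Mrc1, Ednrb and Pf4 cross it.

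Ratios within a library restate these values in a form in which the scaling of that library cancels. The levelling of set means does not cancel in them. The ratio of Lyve1 to Folr2 in TPM was 3.29 to 3.57 in AeEM and 6.17 to 6.87 in AeMM, with geometric means of 3.42 and 6.57. The ratio of Stab1 to Folr2 was 1.91 to 2.14 in AeEM and 3.46 to 4.56 in AeMM. Both ratios were lower in all AeEM libraries than in any AeMM library, which follows from the separate values of these genes and adds no support. In contrast, the ratio of Lyve1 to Stab1 had a geometric mean of 1.71 in AeEM and 1.70 in AeMM, with ranges of 1.62 to 1.80 and 1.35 to 1.92. Mrc1 lay between, at 2.12 to 2.50 times Folr2 in AeEM and 2.75 to 3.14 times in AeMM, and Lyve1 was 1.42 to 1.60 times Mrc1 in AeEM and 2.09 to 2.50 times in AeMM.

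**Figure D3:**
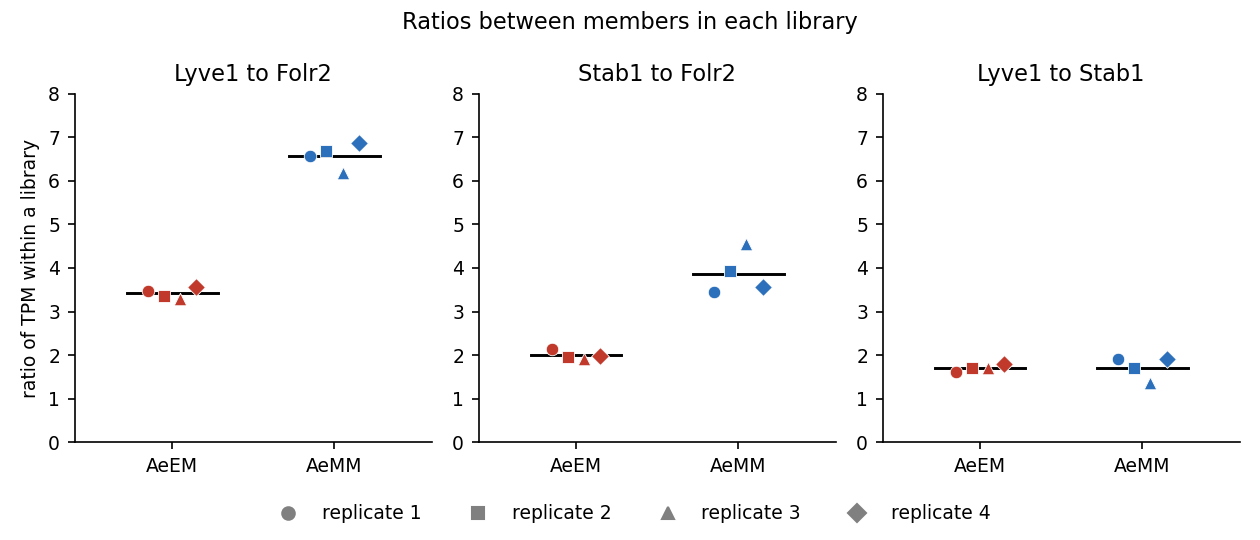
Ratios of TPM between 2 members in each library, on a linear axis from 0, with AeEM in red, AeMM in blue, marker shapes for the replicate number and horizontal lines for geometric means of 4 libraries. Lyve1 and Stab1 are each lower against Folr2 in AeEM (3.42 and 2.00) than in AeMM (6.57 and 3.86), while Lyve1 to Stab1 is at 1.71 and 1.70.

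The profile of each gene over the 8 libraries was also compared with that of 3108 genes averaging 10 TPM or more, by the root mean square distance of the values after subtracting each gene's mean. Over these shared libraries a small distance describes values that stay close, difference between groups included. The profiles were not scaled, so a gene that varies little lies close to any gene with a small difference. Nearest to Lyve1 were Bhlhe41, a transcriptional repressor (0.079 on the log2 scale), Dyrk2, a protein kinase (0.097), Ctla2b (0.0997), AW112010 (0.114) and Ltc4s, the leukotriene C4 synthase (0.115). Stab1 came 11th (0.147), F13a1 91st, Ccl24 212th, Mrc1 411th and Cbr2 546th, while Folr2 came 2294th. Nearest to Folr2 were Ywhah, a 14-3-3 protein (0.032), Parl, a mitochondrial protease (0.048), Serpinb6a (0.052), Gpx1, a glutathione peroxidase (0.052), and Rbm3, an RNA-binding protein (0.054). Lyve1 and Stab1 came 2992nd and 2998th from Folr2, near the far end.

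For genes other than the 9, AeEM was tested against AeMM with an unpaired limma model, at a Benjamini-Hochberg adjusted p under 0.05. The model was fitted over the 8801 genes averaging 1 TPM or more, the 9 included. That fit called 212 genes, 2.41% of those tested, and 102 of them, 1.16%, were lower in AeEM. A second fit, in which the 3 sets entered as a term and which is called the set-adjusted fit here, called 14, or 0.159%. The p-values measure only the spread between these libraries that is left after the levelling of set means, so both fits are given for the related genes. The SEs of the 9 genes above are from the unpaired fit, and those of the set-adjusted fit were larger. They were 0.11 for Stab1, Folr2, Mrc1, F13a1 and Ednrb, 0.10 for Lyve1, 0.18 for Ccl24, 0.09 for Cbr2 and 0.08 for Pf4.

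The other genes of Lyve1+ Folr2+ Timd4+ macrophages moved in both directions. Of 20 tested, 2 rose in AeEM, 3 fell and 15 did not pass, with a median difference of -0.05, and 0 passed in the set-adjusted limma fit, where 14 of the 20 had an unadjusted p under 0.05, as many as in the unpaired fit. Cd209g, a C-type lectin, rose by 0.77 (SE 0.14, limma adjusted p = 0.028) and Fcgrt, the neonatal Fc receptor, by 0.29 (SE 0.05, limma adjusted p = 0.029). Ltc4s, which makes leukotriene C4, had a difference of -0.53 (SE 0.07, limma adjusted p = 0.0082), Maf, the transcription factor, one of -0.46 (SE 0.10, limma adjusted p = 0.047) and Igf1, the growth factor, one of -0.32 (SE 0.06, limma adjusted p = 0.040). Their limma adjusted p in the set-adjusted fit ran from 0.0998 for Ltc4s to 0.36 for Igf1. Ltc4s passed with any 1 library left out. Cd209g and Igf1 passed in 1 of the 8 fits without 1 library, and Fcgrt and Maf in 2 (limma adjusted p up to 0.14). The largest differences that did not pass were those of Cd209f (1.07), the phosphatidylserine receptor Timd4 (0.87) and Pltp, a phospholipid transfer protein (0.71). Colec12 and Cd209b of this list stayed under 1 TPM on average.

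The genes of the opposite kind, low in Lyve1 and high in MHC class II, were mostly higher in AeEM. Of 11 tested 6 rose, 0 fell and 5 did not pass, with a median difference of 0.39. Those that rose were H2-Aa (0.63), H2-Ab1 (0.65) and H2-Eb1 (0.87), chains of MHC class II, Cd74 (0.90), their invariant chain, H2-DMb1 (0.39), which helps to load peptide, and Itgax, or CD11c (1.05). The limma adjusted p of these 6 ran from 0.0012 for H2-Eb1 to 0.016 for H2-DMb1. In the set-adjusted fit H2-Eb1 and Cd74 passed (limma adjusted p = 0.029 and 0.038), while a fit blocked on replicate number kept H2-Eb1 and lost Cd74 (limma adjusted p of 0.044 and 0.070). H2-DMb1 did not pass without AeEM replicate 2 or AeMM replicate 2 (limma adjusted p = 0.061 each). H2-DMa (0.35), the chemokine receptor Ccr2 (0.24) and Cd72 (0.24) did not pass. Of 8 dendritic cell markers 3 were tested. Cd209a (3.65) and Itgax, which is also in the list above, were higher, and Ccr7 (1.48) did not pass. The 8 summed to 44.2 to 106 TPM in AeEM and 6.48 to 13.4 TPM in AeMM, with Cd209a at a mean of 66.4 TPM in AeEM. The defining genes Flt3 and Zbtb46 had means of 0.251 and 0.422 TPM. Both were higher in AeEM, Flt3 at 0.345 TPM against 0.1565 TPM in AeMM and Zbtb46 at 0.596 against 0.247 TPM. Xcr1 was also higher, at 0.888 TPM in AeEM and 0.522 TPM in AeMM. Clec9a (0.606 TPM in AeEM, 0.782 TPM in AeMM) and Siglech (0.052 and 0.080 TPM) went the other way. The part of dendritic cells in the MHC class II values was not tested.

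**Figure D4:**
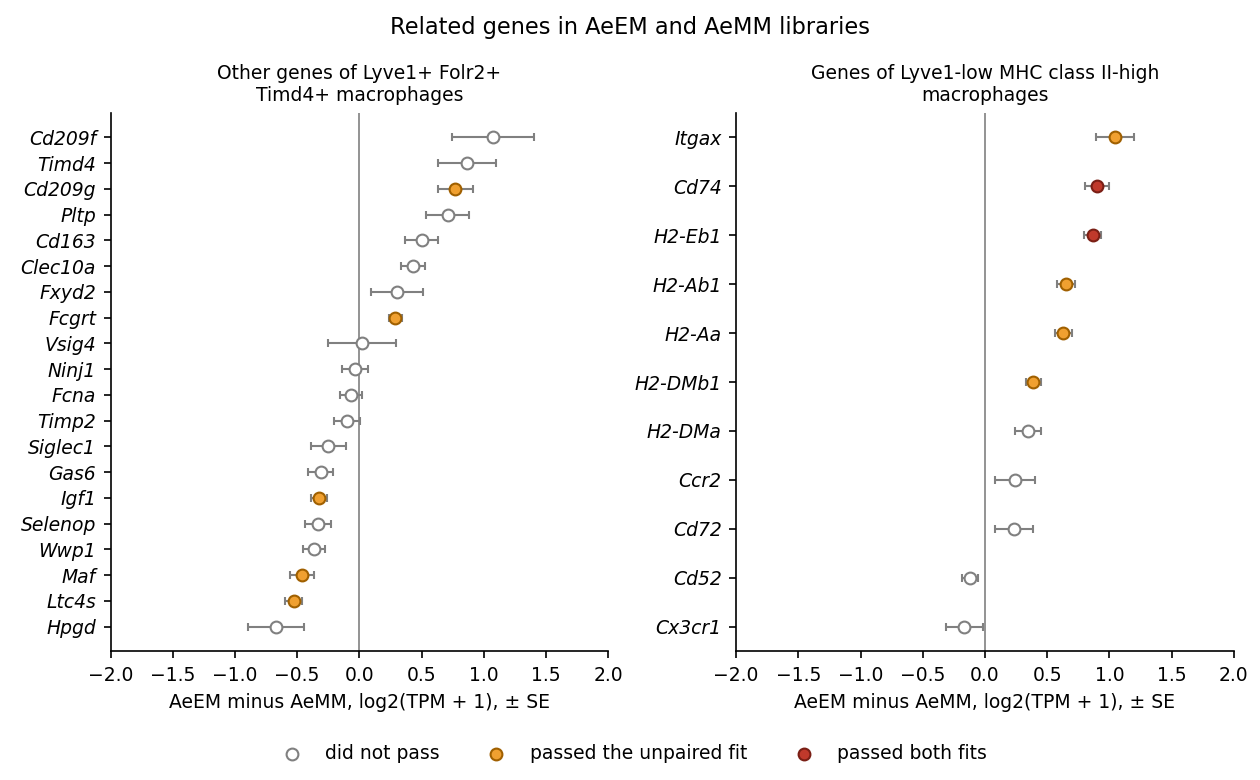
The horizontal axis is the difference AeEM minus AeMM in log2(TPM + 1) with its standard error, for 20 other genes of Lyve1+ Folr2+ Timd4+ macrophages on the left and 11 genes of Lyve1-low MHC class II-high macrophages on the right; filled points passed the unpaired limma fit, and red points also the set-adjusted fit. The left list runs from -0.67 for Hpgd to 1.07 for Cd209f, and on the right Cd74 and H2-Eb1 passed both fits, though Cd74 did not pass with the replicate number as a block.

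Among genes near the receptors in function, hyaluronan and folate handling gave no call. Of 5 tested hyaluronan genes 0 passed either limma fit, also at an unadjusted p under 0.05, with differences from -0.28 for the hyaluronidase Hyal1 to 0.18 for Hyal2, and Cd44, the main hyaluronan receptor of leukocytes, at -0.18. Stab2, the sister gene of Stab1, had a mean of 0.104 TPM. Of 7 tested genes of folate uptake and folate enzymes 0 passed either limma fit, and 3 had an unadjusted p under 0.05 in each. All 7 differences were positive, among them those of the mitochondrial enzyme Shmt2 (1.04) and the folate transporter Slc46a1 (0.52). Folr1, the other folate receptor listed, had a mean of 0.362 TPM. Of 3 tested lectins related to Mrc1, Cd209a rose by 3.65 (SE 0.38, limma adjusted p = 0.0029, 0.033 in the set-adjusted fit), and Cd209d (0.59) and Clec4n (-0.17) did not pass. None of the 5 listed endothelin ligands, receptor and processing enzymes reached a mean of 1 TPM, where Ednrb was at 69.6 TPM. Ece1, an endothelin-converting enzyme, was the highest at 0.435 TPM, and Ednra was at 0.000527 TPM.

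Among genes near the enzymes and chemokines, Ccl8 alone passed both fits. It attracts monocytes and other leukocytes, and fell from 9.29 ± 0.16 in AeMM to 7.72 ± 0.16 in AeEM (SD, n = 4), a difference of -1.57 (SE 0.10, limma adjusted p = 0.00065, 0.016 in the set-adjusted fit). Of 11 tested relatives and receptors of Pf4 and Ccl24, Ccl12 (-0.83) also fell in the unpaired fit (limma adjusted p = 0.026, 0.16 in the set-adjusted fit), and 9 did not pass. Ccl12 passed in 2 of the 8 fits without 1 library (limma adjusted p up to 0.095). Ppbp (-0.71), Cxcl2 (0.63) and Cxcr3 (0.55) were the largest of those 9. Of 10 tested coagulation and fibrinolysis genes, Serpinb2, an inhibitor of plasminogen activators, rose by 1.58 (limma adjusted p = 0.0086, 0.071 in the set-adjusted fit), while F10 (0.50), Procr (-0.40) and Tgm2 (-0.26) did not pass. Of 5 other carbonyl reductases 0 passed either limma fit (unadjusted p under 0.05 for 2 in the unpaired and 1 in the set-adjusted fit), with Cbr4 at -0.37, Cbr3 at -0.36 and Cbr1 at 0.20.

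Genes known to respond to IL-4, among which Mrc1 is often counted, were more often higher in AeEM, though not all. Of 11 tested 2 rose, 1 fell and 8 did not pass, with a median difference of 0.50. The difference was positive for 8 and negative for 3. An unadjusted p under 0.05 was found for 8 in the unpaired limma fit and 7 in the set-adjusted one. Retnla rose by 2.15 (SE 0.33, limma adjusted p = 0.014) and Mgl2, a lectin, by 1.65 (SE 0.11, limma adjusted p = 0.00065), whereas Chil3, a chitinase-like protein, had a difference of -2.16 (SE 0.44, limma adjusted p = 0.043). In the set-adjusted fit Mgl2 passed (limma adjusted p = 0.016) and Retnla and Chil3 did not (0.077 and 0.20). Retnla and Mgl2 passed with any 1 library left out, whereas Chil3 passed in none of the 8 fits without 1 library (limma adjusted p of 0.052 to 0.088). Ccl17 (1.89), Ccl22 (1.72) and Fcrls (0.61) were the largest that did not pass. Of 7 tested genes of large peritoneal macrophages Serpinb2 rose and 6 did not pass, with Prg4 (1.68), Alox15 (0.52) and Fn1 (0.26) the largest of these.

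Some of the 9 genes also mark cells other than macrophages. Lyve1 and Stab1 are expressed by lymphatic or sinusoidal endothelium, whose 8 listed markers summed to 0.073 to 0.286 TPM in AeEM and 0.084 to 0.751 TPM in AeMM. Prox1, the defining factor of lymphatic endothelium, had a mean of 0.000882 TPM. Pf4 is a platelet gene, and the 8 listed platelet markers summed to 3.59 to 121 TPM in AeEM and 17.0 to 55.8 TPM in AeMM, with Ppbp the only one above 1 TPM on average. Gp9 and Itga2b, which define the lineage, had means of 0.021 and 0.051 TPM beside 5246 TPM of Pf4. Gp1ba and Treml1 had means of 0.965 and 0.742 TPM. Ppbp and Pf4 were both highest in AeEM replicate 3 and lowest in AeEM replicate 4. In AeMM, Ppbp was lowest in replicate 3, where Pf4 was highest. The part of platelets in the Pf4 values was not tested. F13a1 is also a monocyte gene. Of 5 other monocyte markers tested, Ly6c2 (-1.55, limma adjusted p = 0.048) and Chil3 fell, and 0 passed in the set-adjusted limma fit, where 2 had an unadjusted p under 0.05. Ly6c2 passed in 1 of the 8 fits without 1 library (limma adjusted p up to 0.14). The 6 listed monocyte markers other than F13a1 summed to 166 to 258 TPM in AeEM and 157 to 200 TPM in AeMM, most of it Ccr2, with Vcan at 0.065 TPM. The gate kept cells without surface Ly6C. The part of monocytes in the F13a1 values was not tested.

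Other marker lists gave few calls. S100a8 (-1.03, limma adjusted p = 0.0044) was the only granulocyte marker tested, in a list that summed to 11.9 to 13.5 TPM in AeEM and 24.2 to 30.2 TPM in AeMM. Nkg7 (-2.41, limma adjusted p = 0.011) was the only one of 5 tested lymphocyte markers to pass, in a list at 35.0 to 87.2 TPM and 74.4 to 89.2 TPM. Neither passed in the set-adjusted fit (limma adjusted p = 0.060 and 0.071). Nkg7 averaged 0.637 TPM in AeEM and held the same log2 value (0.211094) in AeEM replicates 3 and 4, which narrows its spread. Epithelial and mesothelial markers summed to 3.94 to 6.80 TPM in AeEM and 3.96 to 6.14 TPM in AeMM, and fibroblast markers to at most 1.54 TPM. In replicates 3 and 4 of both groups Krt18 held 1 log2 value throughout (1.19026), and so did Krt19 (1.12919). The epithelial sums therefore need not stand for detected transcripts. Red cell transcripts summed to 7665 to 12746 TPM in AeEM and 4210 to 10475 TPM in AeMM, and 0 of 5 passed either limma fit, with 3 at an unadjusted p under 0.05 in each. The part of these cells in the values of the 9 genes was not tested.

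On mm10, with GENCODE M21, Lyve1 and Folr2 lie on the minus strand of chromosome 7, at chr7:110850607-110863239 and chr7:101839988-101857194. Mrc1 lies at chr2:14229392-14332057 on the plus strand, Stab1 at chr14:31139013-31168641, Ednrb at chr14:103814625-103844402, Cbr2 at chr11:120729489-120732114 and F13a1 at chr13:36867178-37050244, these 4 on the minus strand. Pf4 lies at chr5:90772435-90773383 on the plus strand and Ccl24 at chr5:135569937-135573049 on the minus strand. Stab1 overlaps the protein-coding gene Nt5dc2 of the other strand, which stood at 10.4 TPM in AeEM and 6.78 TPM in AeMM, opposite in direction to Stab1. Folr2 overlaps the antisense gene Gm10602, at 3.39 and 2.11 TPM, and F13a1 the antisense gene Gm30489, at 1.35 and 0.914 TPM. The counting is not stated to use strand, so reads of such pairs cannot be told apart, and the values of Stab1, Folr2 and F13a1 are uncertain to that extent.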

How the data were processed

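Smart-seq2 reads were, per the labels and the study's methods, cleaned with fastp, aligned to mm10 with STAR 2.7.2a and counted with Subread featureCounts. The deposited table holds 8 columns, 1 per library, whose values the authors had put on a log2 scale, log2(TPM + 1). The conversion, the annotation and the adjustment that levels gene means across the 3 sets of libraries are not given in the sources used here. No column was left unassigned (0). TPM was recovered from the log2 values, with negative results set to 0.

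AeEM and AeMM were compared with limma 3.58.1 under R 4.3.3 (unpaired, mean-variance trend), on genes averaging 1 TPM or more. Precision is set by 4 libraries per group. The fit was tested on simulated data. Other steps used Python 3.11.15, pandas 2.3.3 and matplotlib 3.10.9. Positions came from GENCODE M21 and promoters from RefSeq on GRCm38.p6. The planned analysis assumed plain TPM, and the deposited log2 values were used as they stand.

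Members and lists were chosen with earlier results of these data known. Named were all members, each list's genes past the threshold with up to 3 more of the largest difference, and the 5 genes nearest Lyve1 and Folr2 (without Gm and Rik symbols). Gata6, Cd5l, Hpgd and single markers were named outside this rule, after their values were seen, as were genes under 1 TPM. A gene that the rule names is not reported here. Alternatives changed the pseudocount, filter, scaling, trend, library weights and the sets or replicate number as a term, and left out each library in turn.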

Additional observations from a re-analysis of the deposited data

Results flagged for a closer look

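Ednrb in AeEM replicate 1 stood at 6.01 in log2(TPM + 1), with the other 3 AeEM libraries between 6.20 and 6.22. The gap to the nearest of these took up 0.904 of the range of the group, above Dixon's 95% limit for 4 samples. It was the only such value among 18 tests, 9 genes in 2 groups, and chance gives about 5% of groups such a value. In the same replicate number Ednrb was highest in AeMM, at 6.26, and the equal means of the sets tie these 2 values to each other.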

How the results depend on the processing

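Of the 9 genes, 7 kept the sign of their difference under every alternative run. Lyve1 ran from -0.77 to -0.66, Stab1 from -0.75 to -0.65, F13a1 from -0.34 to -0.27, Folr2 from 0.19 to 0.25, Ccl24 from -0.62 to -0.33, Mrc1 from -0.26 to -0.11 and Cbr2 from -0.23 to -0.07. Pf4 (-0.11 to 0.10) and Ednrb (-0.03 to 0.09) did not. The 110 genes higher and 102 lower in AeEM became 9 and 5 in the set-adjusted fit, and the 12 higher and 6 lower among the related lists became 4 and 1. With the replicate number as a block the counts were 3 and 2, and 3 and 1 in the lists. The 9 genes were chosen on this contrast, so how many lay past the threshold is a description and not a test. In the unpaired fit 2 were lower in AeEM, as were 1.16% of all 8801 genes tested. In the set-adjusted fit, which called 0.159% of all, it was 0, and 0 with the block. A pseudocount of 5, no filter, a filter of 5 TPM and quantile normalization gave 3 lower each. Of all genes tested, 105 of 8801, 96 of 23469, 117 of 4802 and 135 of 8801 were lower there. Array weights gave 1 higher and 5 lower, beside 540 higher and 836 lower of 8801 genes, and 25 and 14 in the lists. Without a mean-variance trend 58 genes were lower, 3 in the lists. With each library left out in turn, 40 to 106 genes were higher and 31 to 113 lower, 9 to 14 and 2 to 5 in the lists. The lowest counts came without AeEM replicate 1 (40 and 33) or AeEM replicate 2 (46 and 31), and without AeMM replicate 1 (43 and 34), AeMM replicate 2 (46 and 32) or AeMM replicate 4 (72 and 59). The cause was not tested.

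The pairing of equal numbers could not be checked. Deviations from the group means correlated at -0.992 and -0.999 for replicates 1 and 2, which the equal set means fix, and at -0.199 and -0.133 for replicates 3 and 4, and the sources do not say that equal numbers share a mouse. With 4 libraries per group and unknown depth, small differences such as those of Mrc1, Cbr2, Pf4 and Ednrb cannot be told from 0 or called absent. That of Folr2 was also small, at 0.22 with a standard error of 0.11 in the set-adjusted fit. Its sign is therefore a description of these libraries.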
